A study of Mus musculus with 8 samples.

Results

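The CpGs described here lie near the ends of mouse chromosomes 1 to 19. They were taken by position alone, from cytosines with at least 10 reads in all 8 libraries. The centromere side holds cytosines below base 6000000 (mm10), and the telomere side holds those within 3000000 bases of the highest base listed for the chromosome in any library. These rules gave 36210 cytosines on the centromere side and 49462 on the telomere side, together 85672 of the 1510385 cytosines common to all libraries. The comparison set, called the rest, was the other 1394769 common cytosines of chromosomes 1 to 19.

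The libraries came from the dDG DGC layer of the brain of male C57 BL/6 mice, taken to mean granule cells of the dorsal dentate gyrus, a part of the hippocampus. The sample titles name self-administration for both groups, with cocaine for 4 mice and saline for 4, and there was 1 library per mouse. The sources used here give no ages, doses or times, and expression markers of granule cells were not measured by this assay. Methylation was read by reduced representation bisulfite sequencing, which samples CpG-rich restriction fragments and gives, for each cytosine, the share of reads in which it was methylated. The layer is a mixture of cells, so a change of level within cells and a change in the mix of cells cannot be told apart.

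Mouse chromosomes carry the centromere at their tip. The centromere itself and the satellite repeats beside it lie in a gap at the start of each assembled chromosome, so the members begin at the inner edge of that gap and are flanking sequence. Pericentromeric and subtelomeric DNA are known for dense heterochromatin and for methylation kept up by the DNA methyltransferases, while CpG islands at active gene starts are usually free of methylation. Mouse subtelomeres also hold gene-rich sequence, so both kinds of DNA meet in these windows.

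Promoters are shown first, because the ends hold both extremes of methylation. The sequences are from RefSeq, assembly GRCm38.p6, and run 5′ to 3′ over 300 bases, from 250 before to 50 after the start of the gene, with the CpGs that were read in all 8 libraries in capitals. Brwd1 (chr16:96082379-96082678, minus strand, telomere side) encodes a bromodomain protein, and Klhl29 (chr12:5375633-5375932, minus strand, centromere side) encodes a kelch-like protein. Both were named by the rule that takes genes with the most covered cytosines or the smallest region p. Hormad2 (chr11:4441033-4441332, minus strand, centromere side), a gene of meiotic chromosome axes, and Csf2ra (chr19:61228369-61228668, minus strand, telomere side), a cytokine receptor chain, were chosen after their values were seen, as methylated promoters with many covered cytosines.
Brwd1: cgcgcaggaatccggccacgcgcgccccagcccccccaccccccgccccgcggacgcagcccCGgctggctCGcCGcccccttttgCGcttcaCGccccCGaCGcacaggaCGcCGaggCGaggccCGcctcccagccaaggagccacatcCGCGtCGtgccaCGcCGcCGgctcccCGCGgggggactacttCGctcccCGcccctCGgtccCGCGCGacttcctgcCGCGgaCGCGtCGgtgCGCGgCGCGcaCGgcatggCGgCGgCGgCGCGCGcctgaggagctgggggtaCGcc
Klhl29: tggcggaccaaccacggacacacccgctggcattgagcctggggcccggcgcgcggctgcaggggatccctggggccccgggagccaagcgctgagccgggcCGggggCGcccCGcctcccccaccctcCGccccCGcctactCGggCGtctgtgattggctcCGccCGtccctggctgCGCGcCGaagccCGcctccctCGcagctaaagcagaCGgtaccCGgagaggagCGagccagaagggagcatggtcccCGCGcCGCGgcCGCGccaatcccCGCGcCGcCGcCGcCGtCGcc
Hormad2: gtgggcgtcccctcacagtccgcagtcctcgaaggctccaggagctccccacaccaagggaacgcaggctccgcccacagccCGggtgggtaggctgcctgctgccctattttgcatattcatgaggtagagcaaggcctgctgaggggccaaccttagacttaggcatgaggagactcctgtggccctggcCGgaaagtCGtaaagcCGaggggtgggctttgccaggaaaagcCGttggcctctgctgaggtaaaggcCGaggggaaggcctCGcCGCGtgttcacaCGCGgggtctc
Csf2ra: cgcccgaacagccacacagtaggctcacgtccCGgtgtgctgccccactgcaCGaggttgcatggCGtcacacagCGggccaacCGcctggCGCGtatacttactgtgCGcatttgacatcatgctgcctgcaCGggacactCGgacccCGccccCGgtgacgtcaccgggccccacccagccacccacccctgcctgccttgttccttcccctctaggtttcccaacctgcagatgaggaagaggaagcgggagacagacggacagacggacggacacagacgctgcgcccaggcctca
In the Brwd1 promoter 42 of 52 CpGs were covered, and methylation over its 74 cytosines, both strands counted, was 0.414% ± 0.487 (SD, n = 4) in cocaine and 0.809% ± 0.890 in saline mice. The Klhl29 promoter, with 30 of 40 CpGs covered, stood at 0.259% ± 0.161 in cocaine and 1.08% ± 1.73 in saline mice. Both were close to unmethylated in every mouse, the highest value being 3.62% for Klhl29 in saline 1. Hormad2 held fewer CpGs, 16, and its 21 covered cytosines averaged 54.9%, 52.2%, 62.4% and 68.6% in cocaine 1 to 4 and 76.0%, 62.9%, 60.3% and 46.5% in saline 1 to 4. Csf2ra, with 23 CpGs, averaged 70.0% ± 2.66 in cocaine and 72.6% ± 4.84 in saline mice. In all 4 promoters the groups overlapped.

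Most promoters at the ends were of the first kind. Of 268 centromere-side promoters with at least 5 covered cytosines, 93.7% had a mean level under 10%, and of 356 telomere-side promoters 93.0% did, against 93.4% of 8468 in the rest. A mean above 50% was found at 7 promoters on the centromere side, 14 on the telomere side and 282 in the rest. The median number of CpGs was 24 and 26 in the promoters under 10% at the centromere and telomere sides, and 7 and 7.5 in those above 50%. The site CCGG, which reads the same on both strands and is cut by the enzyme most often used for this method, occurred in 53.5% of 873 centromere-side promoters, 57.9% of 1074 telomere-side promoters and 53.3% of 29449 promoters in the rest. It was present in all promoters with at least 5 covered cytosines at both ends and in 99.8% of those in the rest.

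Each library listed 1844706 to 2236384 cytosines with at least 10 reads, and its reads summed over cytosines came to between 87964952 and 141775386. Depth at the members was like that elsewhere, with a median mean coverage of 57.9 reads per cytosine on the centromere side, 58.4 on the telomere side and 57.1 in the rest. Common cytosines were denser on the telomere side, at 868 per megabase, than on the centromere side, at 635, and in the rest, at 609. Saline 1 stood apart: at members of intermediate level with 30 to 40 reads, the share of values at exactly 0% or 100% was 15.2% on the centromere side and 14.5% on the telomere side, while the other 7 libraries had 0.355% to 2.58% and 0.262% to 2.27%. The differences of the whole sets, the windows and the regions were also computed without it.

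Averaged over cytosines, both sets were less methylated than the rest, the telomere side by far more. Mean methylation on the centromere side was 35.6%, 35.9%, 35.2% and 36.7% in cocaine 1 to 4 and 36.5%, 36.5%, 36.4% and 36.6% in saline 1 to 4. The telomere side stood at 30.3%, 30.8%, 29.8% and 31.4% in the cocaine mice and 31.1%, 31.3%, 31.4% and 31.5% in the saline mice. The rest averaged 37.8% ± 0.617 (SD, n = 8). Within each mouse, the centromere side was below the rest by a mean difference of -1.64 ± 0.112 percentage points and the telomere side by -6.87 ± 0.0641 (SD, n = 8). All 8 mice showed both differences (two-sided exact sign-flip permutation test, p = 0.0078125 and adjusted p = 0.0078125 for each, the smallest p that 8 mice can give, adjusted over the 2 sets). All mice were read at the same cytosines, so this p measures repeatability between mice and not the spread between chromosomes.

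The centromere-side difference depended on how cytosines were weighted. With every chromosome given the same weight it was 2.91 points above the rest (exact permutation test, adjusted p = 0.0078125). With reads in place of cytosines as weights it was -0.107 points (exact permutation test, adjusted p = 0.75). The telomere-side difference stayed below 0 under both, at -1.94 and -7.36 points.

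Position relative to genes separated the sets. Cytosines within 1 kb of either end of a gene made up 46.4% of the centromere side, 47.0% of the telomere side and 40.5% of the rest, and they were nearly unmethylated in all of them, at 7.40%, 8.54% and 8.69%. Inside genes the levels were 52.2%, 47.4% and 51.8%. Outside genes they were 74.3%, 57.4% and 68.5%. The centromere side was thus the most methylated of the 3 outside genes and the telomere side the least.

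Outside genes, the centromere side stood 5.87 ± 0.243 points above the rest (SD, n = 8, range 5.47 to 6.24 over mice), and the telomere side differed by -11.1 ± 0.118 points (range -11.3 to -11.0). Inside genes the differences were 0.380 ± 0.175 and -4.41 ± 0.162 points, and near gene ends -1.29 ± 0.0324 and -0.145 ± 0.0723. Each of these 6 differences had the same sign in all 8 mice (two-sided exact sign-flip permutation test, p = 0.0078125, adjusted p = 0.0078125 over the 6). Here too the p measures repeatability between mice at the same cytosines and not the spread between chromosomes. The sign on the centromere side thus turned with position: negative near gene ends, positive inside and outside genes.

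**Figure D1:**
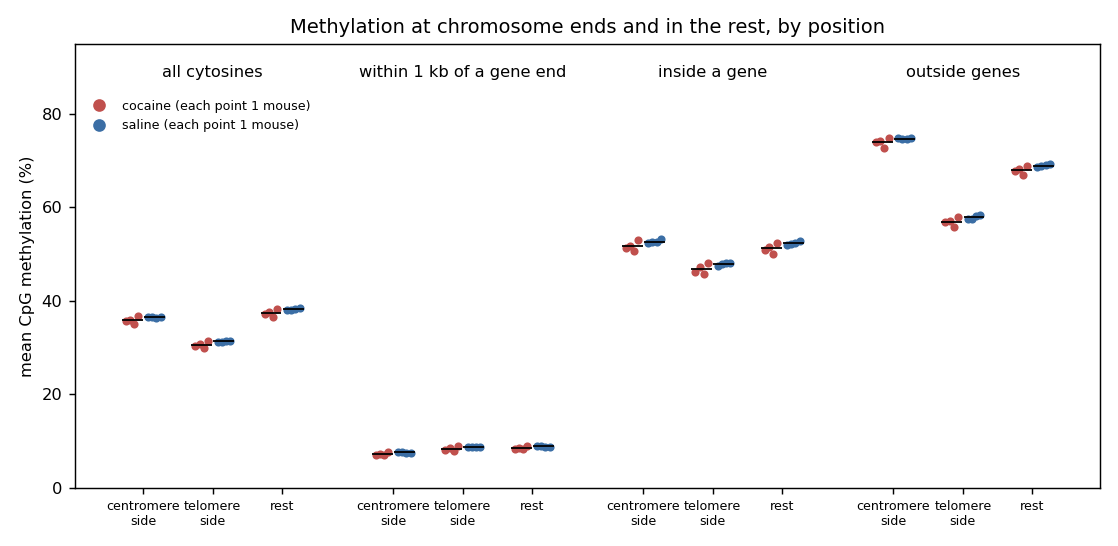
Mean CpG methylation (%) per mouse for the centromere side, the telomere side and the rest, over all cytosines and in 3 classes of position. Each point is 1 mouse and black lines are group means. Outside genes the sets are furthest apart, at 74.3%, 57.4% and 68.5%, while all lie under 10% near gene ends.

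CpG density moved with these levels outside genes. Where 10 or more other CpGs lay within 100 bases, cytosines outside genes averaged 37.6% ± 1.17 on the centromere side, 8.26% ± 0.415 on the telomere side and 21.0% ± 0.415 in the rest (SD, n = 8). With 0 to 2 neighbours the levels were 79.8%, 72.8% and 76.2%, much closer to each other. Dense CpGs outside genes thus differed most between the sets, over 617, 1140 and 19194 cytosines in turn. The SD is over mice and does not measure the spread between chromosomes. Shares of single cytosines tell the same: 24.2% of telomere-side cytosines outside genes were under 10%, against 9.60% on the centromere side and 12.7% in the rest. Over 90% were 44.8%, 30.7% and 39.3% of those on the centromere side, the telomere side and in the rest. A few ends held many of the low telomere-side cytosines: of 2177 under 10%, chromosomes 11, 15 and 2 held 550, 406 and 232. At 9 of the 19 telomere sides the level outside genes was above that of the rest.

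Some of the unmethylated cytosines outside genes lay in long runs, picked here after their levels were seen. The 8 runs with the most such cytosines in each set held 638 of the 2177 cytosines under 10% on the telomere side and 406 of 750 on the centromere side. Of the telomere side, chr2:180892700-180894495, with the m6A reader gene Ythdf1 as nearest gene, held 151 cytosines at a mean of 0.656% (range over mice 0.0941 to 2.33%). On chromosome 11 a pair of runs lay nearest to Cbx8, a Polycomb chromobox gene, at 2.75% and 1.19%. Runs near Ski, a transcriptional regulator, and near the imprinted gene Cdkn1c stood at 0.709% and 5.02%.

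On the centromere side the longest run, chr13:3357939-3361380, had no protein-coding gene within 50 kb. Of its 168 cytosines 166 were low, with a mean of 1.43% and a range over mice of 0.935 to 2.04%. Runs nearest to Scaf8, an RNA processing factor, and to Cd248, a cell surface protein of stromal cells, averaged 1.23% and 1.80%. Both ends thus held unmethylated stretches outside genes.

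The 38 single chromosome ends ranged widely. Of the centromere sides 10 of 19 were above the rest of their own chromosome, 8 of them in all 8 mice, and 9 were below it in all 8 mice. Of the telomere sides 5 were above, 4 of them in all 8 mice, and 14 were below in all 8. The median end stood at 39.4% on the centromere side and 32.0% on the telomere side.

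Chromosomes 9 and 3 had the most methylated centromere sides. For chromosome 9 (1125 cytosines, chr9:3000207-5956495) methylation was 72.9%, 73.2%, 71.3% and 73.2% in cocaine 1 to 4 and 73.5%, 73.3%, 73.4% and 73.0% in saline 1 to 4, and the rest of the chromosome averaged 36.6%. All 39 interior windows of that chromosome, 3000000 bases each, were lower. Chromosome 3 (597 cytosines) averaged 70.7% against 39.8% in its rest, and chromosome 6 (1065 cytosines) 52.7% against 39.5%. In the chromosome 3 window 2.68% of cytosines lay near a gene end, and in that of chromosome 9 13.2% did.

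The lowest centromere sides were those of chromosomes 14, 19 and 5. Chromosome 14 (531 cytosines) averaged 21.6%, 21.5%, 22.3% and 22.7% in the cocaine mice and 22.9%, 25.1%, 21.8% and 22.4% in the saline mice, with 39.4% in its rest. None of the 39 interior windows of chromosome 14 was lower. This end was low outside genes too, at 27.5%, where 145 of its 209 cytosines were under 10%. The centromere side of chromosome 19 was different: 6615 cytosines, 60.2% of them near a gene end, averaged 25.2%, while those outside genes averaged 61.6%. Chromosome 5 averaged 28.6%, and 59.3% of its 1680 cytosines lay near a gene end.

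At the telomere side, chromosomes 17 and 18 stood out, at 70.0% (range over mice 69.3 to 70.6%) and 66.3% (65.4 to 66.8%), against 37.3% and 39.3% in the rest of each. Their windows held 409 and 430 cytosines and 3 and 6 protein-coding genes. Chromosome 3 followed at 43.8%. The lowest were chromosome 2 at 22.2% (21.5 to 22.8%), chromosome 9 at 24.5% (23.9 to 24.9%) and chromosome 11 at 25.8% (24.7 to 26.5%). Chromosome 11 had the least methylated telomere side outside genes, at 32.2%, with 550 of 1065 cytosines under 10%, and the runs nearest to Cbx8 lie there.

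**Figure D2:**
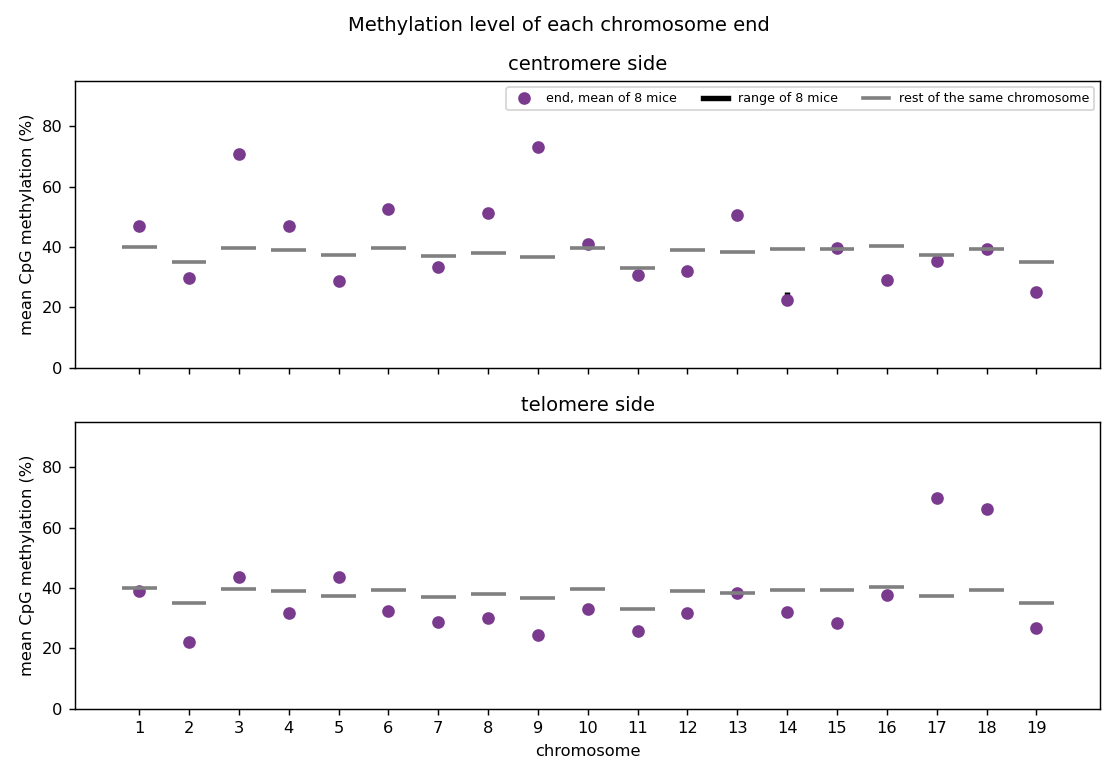
Mean CpG methylation (%) of each chromosome end, centromere side above and telomere side below, by chromosome. Points are means of 8 mice, thick black bars the range over mice (mostly hidden by the points), and grey lines the rest of the same chromosome. Chromosomes 3 and 9 (centromere side) and 17 and 18 (telomere side) lie far above their grey lines, at 66.3% to 73.0%.

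Across the 19 ends, the level went down as the share of cytosines near gene ends went up, with a Pearson correlation of -0.847 and a Spearman correlation of -0.807 on the centromere side and of -0.721 and -0.560 on the telomere side. This is a description over ends that share the same 8 libraries, and the level of an end includes its cytosines near gene ends. Outside genes alone, 13 of 19 centromere sides and 9 of 19 telomere sides had a level above that of the rest, 68.5%.

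Within the sets the level changed with distance. The first 0.5 Mb of the centromere side averaged 48.1% ± 0.489 (SD, n = 8), and the next 5 bins of that width 33.1%, 33.7%, 33.2%, 33.7% and 37.7%. In that first bin 29.5% of cytosines lay near a gene end, against 45.5% to 51.8% in the others. Outside genes the first bin, at 71.3%, was not above the others, which ran from 72.3% to 78.6%.

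The telomere side dipped a little way in from the tip. Its bins averaged 34.2%, 25.1%, 25.7%, 31.3%, 34.2% and 34.1% from the tip inward. Outside genes they were 72.4%, 59.4%, 45.8%, 52.2%, 66.8% and 51.9%. Just beyond the borders of the sets, the next 3 Mb inward averaged 40.6% on both sides. That was above the last bins of the sets before the border, at 37.7% and 34.1%.

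**Figure D3:**
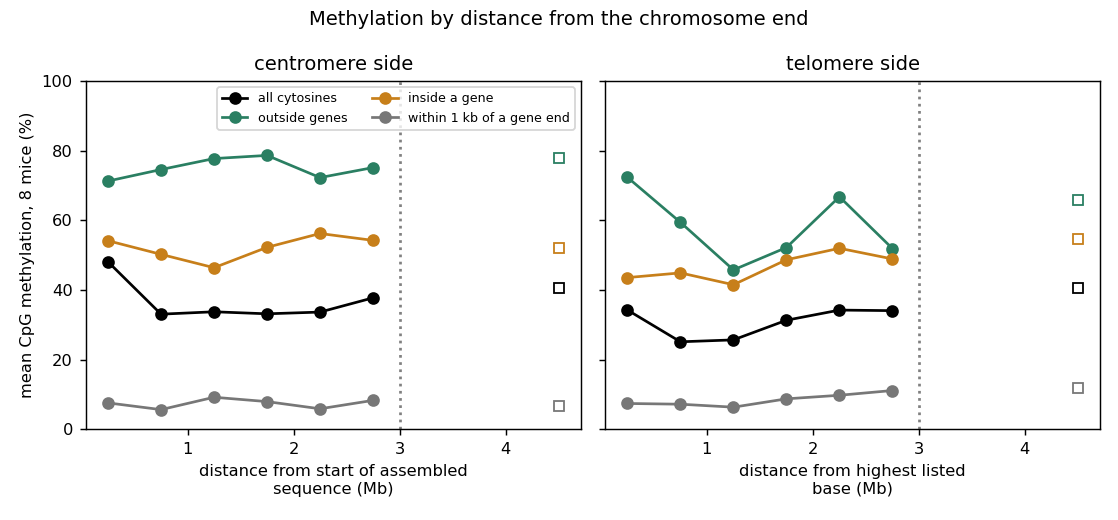
Mean CpG methylation (%, 8 mice) in bins of 0.5 Mb from the start of the assembled sequence (left) or from the highest listed base (right), over all cytosines and by position. The dotted line is the border of the set, and open squares are the next 3 Mb inward. Over all cytosines the first centromere-side bin is the highest, at 48.1%, and the telomere side is lowest between 0.5 and 1.5 Mb, at 25.1% and 25.7%.

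A few places near the centromere collected very many reads. Only 48 centromere-side cytosines, 0.133% of the set, had a mean coverage above 500, yet they held 8.01% of its reads, against 0.663% for 19 such cytosines on the telomere side and 5.04% for 828 in the rest. They lay close to the assembly gap on chromosomes 6, 9, 11, 12 and 17, beside a few further in on chromosomes 5 and 10. At chr6:3201422-3201515 the mean coverage of 10 cytosines was 9422 reads, and methylation was 19.2%, 22.7%, 20.7% and 24.0% in cocaine 1 to 4 and 17.9%, 27.6%, 17.7% and 21.5% in saline 1 to 4. On chromosome 17 the 1 such cytosine, at base 3083695, averaged 37.5% over the 8 mice. Those on chromosomes 5 and 10, 3 cytosines each and near gene ends, averaged 1.28% and 0.173%.

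The others were highly methylated in every mouse. Chr9:3000576-3006831 (13 cytosines, 2357 reads) ranged from 82.7% to 86.8%, chr12:3109883-3110027 (7 cytosines, 5100 reads) from 79.3% to 83.9%, and chr11:3193483-3193628 (10 cytosines, 3376 reads), inside the centrin-binding gene Sfi1, from 70.4% to 74.0%. Whether such stacks join reads from several copies of a repeat was not tested. With all cytosines above the 99th percentile of coverage left out, the centromere-side difference from the rest went from -1.64 to -1.85 points. The stacks were among those left out. Every cytosine counts the same in that level, so the few in stacks could move it little. The level weighted by reads was not computed without them.

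The design compares cocaine with saline. The cocaine mean was lower in both sets: 35.8% ± 0.634 against 36.5% ± 0.0887 (SD, n = 4 each) on the centromere side and 30.6% ± 0.698 against 31.3% ± 0.166 on the telomere side. These differences, -0.664 and -0.721 points, were close to that of the rest, at 37.4% ± 0.703 against 38.2% ± 0.174. The groups overlapped in each set: cocaine 4 was as high as the saline mice, and cocaine 3 was the lowest mouse. The values are given with no test, since the sets were chosen with results of these data known. Weighted by reads, the centromere-side difference was 0.174 points, with the other sign.

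Each end was then tested as 1 of 811 windows of about 3000000 bases over chromosomes 1 to 19, with limma on the mean level. The share of all windows called at an adjusted p under 0.05 was 0.0%, and none of the 38 ends was called. At an unadjusted p under 0.05 stood 5 centromere sides and 4 telomere sides, all lower in cocaine, against 29.3% of all windows. All 38 ends had a lower mean in cocaine, as had 98.9% of all windows. The groups did not overlap at 3 centromere sides (chromosomes 2, 7 and 8) and at no telomere side, against 9.99% of all windows. Shares of this size among the ends were near those of the background.

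The end with the smallest p was the telomere side of chromosome 13. It read 37.5%, 38.1%, 36.6% and 39.0% in cocaine 1 to 4 and 39.9%, 39.1%, 38.4% and 38.8% in saline 1 to 4, a difference of -1.26 ± 0.431 points (SE, limma, adjusted p = 0.143). Cocaine 4 lay among the saline mice here as well. Among centromere sides it was chromosome 7, with 33.0%, 32.6%, 32.2% and 33.5% in cocaine and 33.7%, 34.1%, 33.7% and 33.7% in saline mice, a difference of -0.983 ± 0.416 points (limma adjusted p = 0.147). All 4 cocaine mice were below all 4 saline mice at that end. The telomere sides of chromosomes 1 and 14 and the centromere sides of chromosomes 14 and 17 differed by -1.01, -0.935, -1.04 and -0.969 points (limma adjusted p = 0.143, 0.163, 0.163 and 0.163).

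The ends differed between groups about as much as the interior of the chromosomes. Their median difference was -0.640 points on the centromere side and -0.663 on the telomere side, and that of the 773 interior windows was -0.682, with the 5th and 95th percentiles at -1.20 and -0.195. When each mouse's mean over the rest was subtracted first, an alternative chosen after seeing the data, again 0 windows were called, and the centromere side of chromosome 19 was the only end at an unadjusted p under 0.05, against 8.14% of all windows. Its centred difference was 0.266 points (limma, adjusted p = 0.565).

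The call depended on 1 library. Without cocaine 4, limma called 540 windows, 66.6% of all, among them 13 centromere sides and 14 telomere sides, all lower in cocaine. With the levels centred as above and cocaine 4 left out, 0 windows were called. Without any other single mouse the number of windows called was 0 to 3 and that of ends 0.

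**Figure D4:**
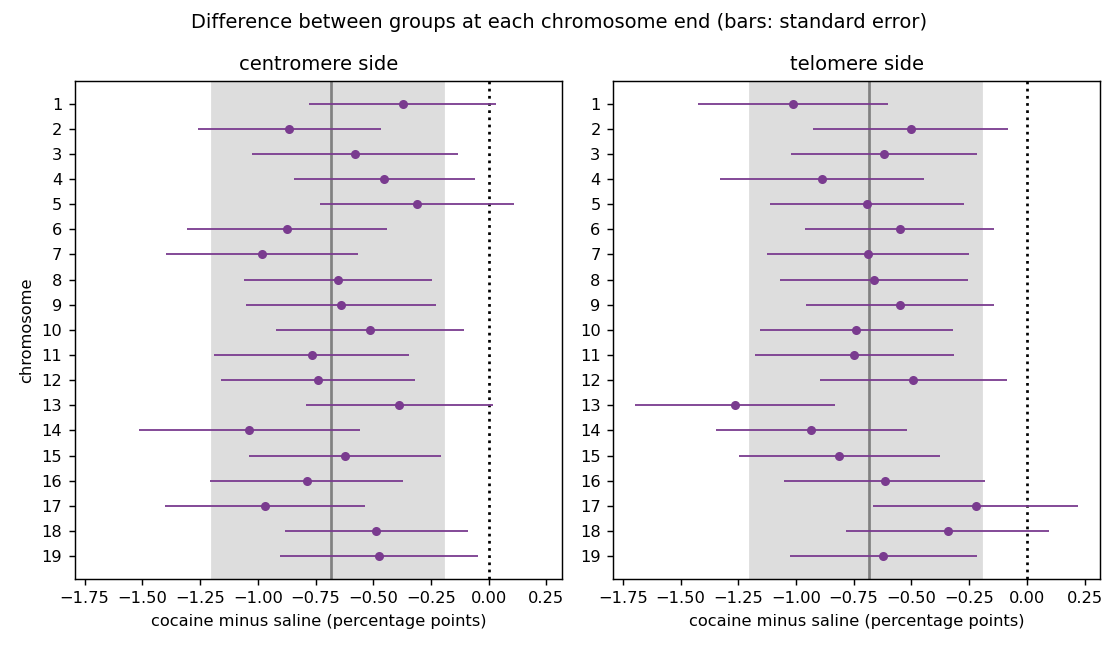
Cocaine minus saline (percentage points) for each chromosome end, with the standard error of the limma fit as bars. The grey band holds the 5th to 95th percentile of the 773 interior windows and the grey line their median, -0.682, and the dotted line is 0. All 38 points lie below 0 and all but that of chromosome 13 (telomere side, -1.26) lie inside the band.

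At a finer scale, regions of at least 3 CpGs with gaps of at most 100 bases were tested by quasi-binomial regression of methylated and unmethylated reads. Of 2830 centromere-side and 3756 telomere-side regions, 1964 and 2636 had a pooled level from 5% to 95% and were tested among 92484 in all. The share called, at an adjusted p under 0.05 and at least 10 points, was 0.0% of all regions, with 0 in either set by this test and 0 by limma on logit levels. At an unadjusted p under 0.05 stood 93 centromere-side regions (4.74%) and 140 telomere-side regions (5.31%), against 5.65% of all regions. Of these, 77 and 106 were lower in cocaine, a class that made up 4.57% of all regions. By limma on logit levels 96 and 125 member regions had an unadjusted p under 0.05, against 4.99% of all regions. The groups did not overlap at 50 and 95 regions (2.55% and 3.60%), against 3.29%. Cocaine was lower at 61.6% and 61.4% of member regions, against 61.8% of all. These shares put the ends beside the genome as a whole.

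Regions with the smallest p are described as values, since none was called. On the centromere side the lowest p lay in Zfp865, a zinc finger gene, at chr7:5030830-5030917, where methylation was 68.2%, 81.8%, 83.3% and 87.4% in cocaine 1 to 4 and 96.4%, 92.4%, 94.2% and 93.2% in saline 1 to 4 (quasi-binomial p = 0.000676, adjusted p = 0.876). Within Mtmr3, which encodes a phosphoinositide phosphatase, chr11:4482860-4482966 read 16.9%, 28.7%, 16.3% and 10.5% in cocaine and 36.0%, 29.8%, 37.7% and 50.7% in saline mice. The groups were apart at both. They were apart also near an end of Efemp2, the gene of an elastic fibre protein of the extracellular matrix, at 76.1% ± 6.88 in cocaine and 88.6% ± 2.10 in saline mice (SD, n = 4), and in Ccdc106, at 75.9% ± 6.23 and 85.7% ± 2.14. A region inside Klhl29, at chr12:5255399-5255477 and so outside its promoter, read 0%, 4.41%, 0% and 0% in cocaine and 0%, 20.4%, 13.1% and 9.52% in saline mice. Near Snx9, a sorting nexin of endocytosis, the means were 48.8% and 62.1%, with overlap at both.

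Higher means in cocaine were found on the centromere side inside Castor1, the arginine sensor of mTORC1, at 82.0% ± 4.33 against 72.4% ± 4.02 (SD, n = 4). Inside Cabp2, a calcium-binding protein gene, 76.9% ± 4.36 stood against 63.9% ± 5.77, and there the groups did not overlap. Cdk14, a cyclin-dependent kinase gene, read 14.6% against 6.01%, and a region nearest to Akr1c14, a hydroxysteroid dehydrogenase gene, 53.3% against 40.1%, both with overlap. The noncoding gene Gm36787 read 96.4% against 83.7%, without overlap but on only 15.9 reads per cytosine. A region of 5 CpGs without a gene at chr6:3200780-3200799 read 89.7% against 72.7%, with overlap, close to the read stack of that chromosome.

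On the telomere side the smallest p was inside Sec22c, a gene of vesicle transport between endoplasmic reticulum and Golgi. There chr9:121692815-121692934 read 58.2%, 82.4%, 73.9% and 67.2% in cocaine 1 to 4 and 94.2%, 95.5%, 93.3% and 88.8% in saline 1 to 4 (quasi-binomial p = 0.000196, adjusted p = 0.673). All saline mice were above all cocaine mice. In Prdm16, a transcription factor gene, the means were 38.3% ± 6.37 and 52.6% ± 4.05, and in Timm8a2, a mitochondrial import chaperone gene, 82.5% ± 10.5 and 95.4% ± 0.892. The groups were apart at both, and at chr8:127706616-127706734, with no gene within 50 kb, at 5.58% ± 3.19 and 19.6% ± 8.18. At chr15:103655806-103655902 and chr7:145015655-145015714, also without a gene, cocaine means of 74.0% and 52.2% stood against 85.7% and 67.4%, with overlap.

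The largest difference in the other direction lay near an end of Pde6g, the inhibitory subunit of the rod phosphodiesterase. At chr11:120448126-120448214 methylation averaged 84.1% ± 4.55 over the cocaine mice (SD) and read 60.7%, 69.1%, 62.5% and 49.1% in saline 1 to 4 (quasi-binomial p = 0.000738, adjusted p = 0.876). The groups were apart, as they were near Myo1a, a myosin of the intestinal brush border, at 56.1% and 37.1%, in Ttc34 at 41.9% and 25.3%, and near an end of Arhgef16, a guanine nucleotide exchange factor gene, at 99.04% and 88.4%. B3glct, a glucosyltransferase of thrombospondin repeats, read 95.4% and 87.3%, and Tmtc1, an O-mannosyltransferase, 29.7% and 21.2%, with overlap. None of these 24 regions passed the test under any of the 320 alternative values computed for them, and all kept their direction.

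**Figure D5:**
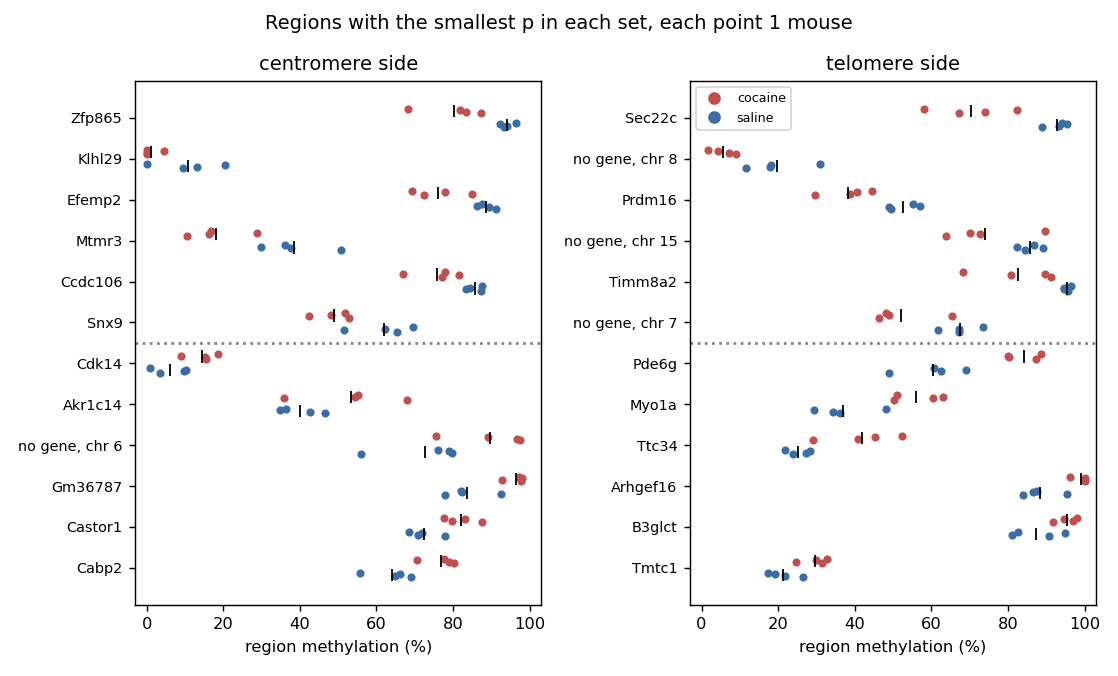
Region methylation (%) per mouse at the 24 regions with the smallest p, 6 per set and direction. Each point is 1 mouse, black ticks are group means, and regions below the dotted line had a higher mean in cocaine. The spread within a group is wide at most of them, as at Sec22c, where cocaine mice run from 58.2% to 82.4%.

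Gene ends with the most covered cytosines were all close to unmethylated. Those of the centromere side were Ewsr1, an RNA-binding protein gene (165 cytosines, 1.23%, range over mice 0.825 to 2.31%), Glyr1, a nucleosome-binding protein gene (1.17%), the dystroglycan glucuronyltransferase gene B4gat1 (0.834%), the trafficking gene Pacs1 (0.490%) and the zinc finger gene Plag1 (0.574%). Those of the telomere side were the chromatin protein gene Hmgb1 (194 cytosines, 0.314%, range 0.0743 to 0.803%), Brwd1 (0.659%), Ss18l1, a subunit of neuronal BAF chromatin remodelling (0.899%), the proteasome gene Psma7 (1.42%) and Irf2bp2 (1.37%). Ss18l1 and Psma7 start next to each other and share cytosines. Over these 10 genes the difference between group means ran from -1.49 points (Irf2bp2) to 0.258 points (Ewsr1). Without saline 1, chosen after seeing the data, the range was -0.761 points (Irf2bp2) to 0.229 points (Ewsr1), and Glyr1 moved from -1.25 to -0.450 points. Hmgb1 changed sign without it, from 0.0245 to -0.0513 points.

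Over all genes with at least 5 covered cytosines within 1 kb of an end, 307 of 415 on the centromere side and 342 of 491 on the telomere side averaged under 10%. Those above 50% numbered 33 and 53. Imprinted genes lie in the telomere side of chromosome 7: cytosines near the ends of H19, an imprinted noncoding RNA, had a mean of 58.1% ± 3.36 in the cocaine group and 61.99% ± 4.37 in the saline group, and those of Cdkn1c 24.6% ± 6.62 and 26.2% ± 3.04. The 7 cytosines near the ends of Kcnq1ot1, another imprinted noncoding RNA, averaged 29.2% ± 3.35 and 22.6% ± 18.5. The saline mice ranged from 2.38% (saline 1) to 44.1% (saline 3) around all 4 cocaine mice. Near the ends of the developmental gene Hoxc10 on chromosome 15 the means were 4.70% ± 0.789 and 6.22% ± 3.03. Saline 1, the library that stood apart, read 10.8% there, and saline 2 to 4 read 4.97%, 4.44% and 4.72%. These 4 genes were chosen after seeing the data.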

How the data were processed

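Per the submitters' processing notes, bcl2fastq and Bismark 22.1 were used, with the mm10 build. The sources used here do not give trimming or any removal of duplicates. Each level is headed as a percent but deposited as a fraction between 0 and 1, and is given here times 100. Coverage was deposited as a read count, at least 10 per cytosine and library. Level times coverage was whole at 100% of cytosines (tolerance 5e-07 times the coverage), which gave methylated and unmethylated read counts. Without molecular identifiers, reads may be copies of few molecules, so tests rest on the spread between mice.

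Groups and replicate numbers came from the sample titles. The labels do not say that a number pairs mice, and deviations of same-numbered mice correlated between -0.142 and 0.310 over windows and -0.0169 and 0.0772 over regions, so no pairing was used. Members were fixed by position, and members, lists and tests were chosen with earlier results of these data known.

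Windows were tested with limma 3.58.1 (R 4.3.3) on mean percent levels, with a trend on the number of cytosines (at least 20). Regions were tested by quasi-binomial regression with dispersions moderated by limma's squeezeVar (floor 1) and an F test, both with Benjamini-Hochberg adjustment over all 811 windows or 92484 regions. Sets were compared with the rest by exact sign flips over 256 patterns. The window and region tests were also run on simulated data, in which each window or region varied on its own. That check could not show how the window test behaves when all windows of a mouse shift together. Gene positions and promoters came from RefSeq tables of GRCm38.p6, with the coordinates of mm10. The rule for named items took the 6 regions with the smallest p per set and direction, the 5 genes with the most cytosines at their ends per set, and the 3 highest, 3 lowest and 3 smallest-p chromosome ends per set. Alternatives were a coverage minimum of 20, read or chromosome weights, narrower sets, merged strands, other filters, logit levels, a replicate block and leaving out mice.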

Additional observations from a re-analysis of the deposited data

Results flagged for a closer look

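In a group of 4 mice, a value was singled out when its gap to the nearest other mouse took up most of the range of the group, a rule that by chance picks about 1 in 20 groups. It picked 9 of the 110 groups examined. Over the whole centromere side saline 4 stood at 36.6%, with the other saline mice between 36.4% and 36.5%. On the centromere side of chromosome 7 saline 2 stood at 34.1% (others 33.7%), and on that of chromosome 17 saline 4 at 36.5% (others 35.5% to 35.6%).

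At the regions, cocaine 2 read 4.41% at Klhl29 where the other cocaine mice read 0%. Saline 4 read 56.0% at chr6:3200780-3200799 (others 76.0% to 79.6%), and cocaine 3 read 92.9% at Gm36787 (others 97.2% to 98.0%). Cocaine 3 also read 65.3% at chr7:145015655-145015714 (others 46.2% to 49.1%), and cocaine 1 read 96.2% at Arhgef16 (others 100%). At the ends of Hmgb1 cocaine 2 read 0.803% (others 0.127% to 0.202%). These values belong to 3 cocaine and 2 saline mice.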

How the results depend on the processing

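The telomere-side difference from the rest kept its sign and its side of the threshold under every alternative run. It ran from -11.1 points (outside genes only) to -0.145 points (near gene ends only), and from -6.88 to -6.86 points without any single mouse. All mice were read at the same cytosines, so passing the threshold shows repeatability between mice and says nothing of the spread between chromosomes. The centromere-side difference ranged from -1.67 to -1.62 points without single mice. It was -0.107 points when weighted by reads (exact permutation test, adjusted p = 0.75), and it turned to 2.91 points with chromosomes weighted equally, 0.380 points inside genes only and 5.87 points outside genes only.

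Cocaine minus saline, with -0.664 points on the centromere side and -0.721 on the telomere side, became 0.174 and -1.43 points when weighted by reads. Without single mice it ran from -0.937 to -0.433 and from -1.01 to -0.471 points. The windows called by limma, 0 with all mice, were 3 on the logit scale, 10 with the replicate block, 1 without saline 1 and cocaine 3 together, and 0 to 540 without single mice. Among member windows, 0 to 13 centromere sides and 0 to 14 telomere sides were called without single mice, the highest counts being those without cocaine 4. The replicate block called 1 region of 92484, a telomere-side region at chr13:119488001-119488169 near Tmem267 (5.59% ± 3.72 in cocaine, 23.6% ± 17.5 in saline, SD, n = 4, quasi-binomial adjusted p = 0.0133 with the block and 0.876 without). Whether a number pairs mice is not given by the labels, and with the block no end was called. The centromere side of chromosome 9 turned to 1.81 points when weighted by reads. Of the 238 alternative values of the 17 named ends it was the only 1 with another sign. Those values leave out the levels centred on each mouse's mean over the rest. With that centring, only 7 of 19 centromere sides and 6 of 19 telomere sides were lower in cocaine. The cause of these changes was not tested. With 4 mice per group and a median SD of 13.6 points per cytosine of intermediate level, differences at single cytosines were not read.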

Other observations

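Gene ends with high methylation at the chromosome ends included genes of other tissues and genes of neurons, picked here after their values were seen and with no test. On the telomere side of chromosome 15, 19 keratin genes had at least 5 cytosines within 1 kb of their ends, with means from 1.31% (Krt87) to 89.7% (Krt81). Of these, 9 were above 50%, among them Krt72 and Krt73 at 88.5% and 87.2%, and 3 were under 10%, so the family was not uniform. The ends of Krt18 stood at 18.5%. Keratins are filament proteins of epithelia. On the telomere side of chromosome 4 the ends of Gabrd, the delta subunit of the GABA-A receptor, averaged 88.1% ± 1.82 in cocaine and 89.6% ± 1.35 in saline mice over 16 cytosines (SD, n = 4). On the centromere side of chromosome 11 the ends of Camk2b, a subunit of a calmodulin-dependent kinase, averaged 94.8% over 7 cytosines, and those of the cytokine genes Lif and Osm 59.4% and 73.7%. These means pool cytosines near either end of a gene, and which end held them was not looked at. They are thus not levels of gene starts.

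Promoters above 50% included those of Ccdc152 (91.9%) and Tgfbr3l (86.0%). Topaz1, a germ cell gene, averaged 78.0% over 16 cytosines. Some genes had promoters of both kinds: at Lyzl4 one of 5 cytosines stood at 92.8% and others of 10 and 19 cytosines at 3.88% and 0.545%. In Trp73, a transcription factor of the p53 family, a promoter of 6 cytosines averaged 63.7% ± 5.27 in the cocaine group and 73.2% ± 3.99 in the saline group, with no test, and another of 46 cytosines averaged 0.669% over all mice. Among the telomere-side cytosines of chromosome 10, at chr10:129391056-129391118, 4 with a mean coverage of 2714 reads were methylated at 95.8% to 96.6% in all 8 mice.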
